A study of Mus musculus with 8 samples.

Results

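Semaphorins, plexins and neuropilins were followed in macrophages of mice with Il6ra, the gene of the IL-6 receptor alpha chain, targeted in myeloid cells, and in controls, all exposed to IL-6. The family was taken as every gene whose only annotated symbol on the array begins with Sema and a digit, with Plxn or with Nrp, which gave 31 of the 19938 genes measured. They were 20 semaphorin ligands, 9 plexins and 2 neuropilins, and all 31 were measured without any filter on low values. The family was chosen by the higher values of Plxna2 in IL6raKO than in Ctrl arrays, so the difference of Plxna2 is described without a p-value of its own. The other 30 members entered by their symbols. The whole family was nevertheless singled out through this same comparison, and the p-values of the other members support nothing beyond themselves.

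IL6raKO macrophages came from IL6ralpha flox/flox LysMCre tg/wt mice, in which a Cre recombinase driven from the lysozyme locus acts in myeloid cells. Ctrl macrophages came from IL6ralpha flox/flox mice without Cre, so that both groups carried the floxed receptor allele and only IL6raKO carried Cre. Bone marrow cells of both were grown for 10 days with 10 ng/ml M-CSF, starved of serum overnight and given 50 ng/ml murine IL-6 for 4 hours. There were 4 arrays a group, named as biological replicates, and no culture went without IL-6. What the design compares is expression after IL-6 between the genotypes, while effects of Cre itself, or differences present before IL-6 was added, cannot be told apart from it. The labels name neither strain, age nor sex of the mice, and do not say whether replicates came from separate animals, so p-values rest on the spread of these 8 samples, which may be technical.

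Semaphorins are secreted or membrane-bound proteins that share a sema domain and were first known as guidance cues for growing axons. Plexins are their main receptors, and they act through a cytoplasmic domain that switches off small GTPases of the Ras and Rap type and so alters integrin adhesion and the cytoskeleton. Class 3 semaphorins are secreted and mostly need a neuropilin as the binding chain beside a plexin, while semaphorins of other classes bind plexins directly. In the immune system Sema4D, Sema4A, Sema6D and Sema7A and the receptors plexin-A1, plexin-A4, plexin-B2, plexin-C1, plexin-D1 and neuropilin-1 are known to act in the movement and activation of macrophages, dendritic cells and lymphocytes.

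The targeted gene served as the check of the genotype. Il6ra had log2 values of 7.75, 8.10, 7.91 and 7.92 in IL6raKO arrays, against 8.43, 8.40, 8.40 and 8.45 in Ctrl arrays. Every IL6raKO array lay below every Ctrl array, and the difference was -0.50 (SE 0.07), which corresponds to 70.6% of the control level. Where the probes lie relative to the floxed part was not examined, so this percentage does not measure how much of the gene was deleted. Over all genes limma did not call Il6ra (adjusted p = 0.0607). Defining macrophage markers were bright in all cultures, with a mean log2 value over 7 genes of 11.53 to 11.57 in IL6raKO arrays and 11.54 to 11.66 in Ctrl arrays. The first principal component of all genes put Ctrl replicate 4 at 21.5 and the other 7 arrays between -6.6 and 4.8. Values are log2 expression values of a probe set. Levels of different probe sets depend on their probes, so differences are read between arrays for the same probe set. Words such as bright, and the split of genes at the median level used below, are only rough descriptions.

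Of the 4 members whose IL6raKO arrays all lay above all Ctrl arrays, the 3 with an entry in the RefSeq promoter table (all but Plxna1) are shown with their start-site sequences, so that the letters behind the motif count below can be read. Each runs 5′ to 3′ on the strand of its gene, from 250 bases before to 50 bases after a transcription start, with CG dinucleotides in capitals. The window of Plxna2 lies at chr1:194619579-194619878 (plus strand), that of Plxnc1 at chr10:94944796-94945095 (minus strand) and that of Sema4d, the first of its 3 windows in the table, at chr13:51748761-51749060 (minus strand), all in GRCm38.p6.
Plxna2: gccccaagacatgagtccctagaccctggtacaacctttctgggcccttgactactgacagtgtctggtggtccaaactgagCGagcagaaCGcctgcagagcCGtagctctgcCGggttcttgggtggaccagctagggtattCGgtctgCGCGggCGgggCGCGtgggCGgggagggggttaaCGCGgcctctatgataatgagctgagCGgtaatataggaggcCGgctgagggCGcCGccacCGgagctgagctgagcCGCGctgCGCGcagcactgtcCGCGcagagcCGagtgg
Plxnc1: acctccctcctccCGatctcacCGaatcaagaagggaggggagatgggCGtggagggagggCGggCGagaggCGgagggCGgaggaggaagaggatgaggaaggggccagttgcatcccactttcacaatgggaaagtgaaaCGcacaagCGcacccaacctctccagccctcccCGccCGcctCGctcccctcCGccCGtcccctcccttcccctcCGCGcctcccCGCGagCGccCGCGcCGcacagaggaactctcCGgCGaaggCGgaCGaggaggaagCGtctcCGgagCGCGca
Sema4d: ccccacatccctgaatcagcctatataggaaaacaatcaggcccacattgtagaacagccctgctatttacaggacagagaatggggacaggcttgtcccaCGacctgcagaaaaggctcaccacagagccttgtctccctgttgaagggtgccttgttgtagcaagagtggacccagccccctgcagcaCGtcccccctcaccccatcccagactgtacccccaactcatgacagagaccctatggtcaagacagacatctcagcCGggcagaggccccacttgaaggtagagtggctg
The windows of Plxna2 and Plxnc1 held 25 and 30 CG dinucleotides, and the 3 windows of Sema4d held 3, 2 and 3, where the median of all 32851 windows of this length was 7.0. The STAT motif TTCNNNGAA, which is its own reverse complement, was searched in the windows of 26 members that the table holds. It was present for 1 of these 26 members (3.85%) and for 2582 of 27025 genes in all (9.55%). These shares were not adjusted for the number of CG dinucleotides. The 1 match was TTCCTAGAA in the window of Sema3e at chr5:14025026-14025325 (plus strand), beginning at base 292 of the window. No match was found in these windows of Plxna2, Plxnc1 and Sema4d, which says only that these letters are not there.

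Plxna2 stood highest among the members in IL6raKO relative to Ctrl. Plxna2 encodes plexin-A2, a receptor that binds Sema6A and Sema6B directly and class 3 semaphorins together with neuropilins. Its log2 values were 8.09, 8.14, 8.24 and 8.07 in IL6raKO arrays, against 7.74, 7.82, 7.88 and 7.75 in Ctrl arrays. The groups did not overlap, and a gap of 0.19 separated the lowest IL6raKO array from the highest Ctrl array. Its means were 8.14 ± 0.08 in IL6raKO and 7.80 ± 0.07 in Ctrl (SD, n = 4 each), a difference of 0.34 (SE 0.06) that corresponds to 126.4% of the control level. With any 1 array left out the difference lay between 0.30 and 0.37. With the mean of 10 mast cell and basophil markers as a covariate it was 0.34.

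**Figure D1:**
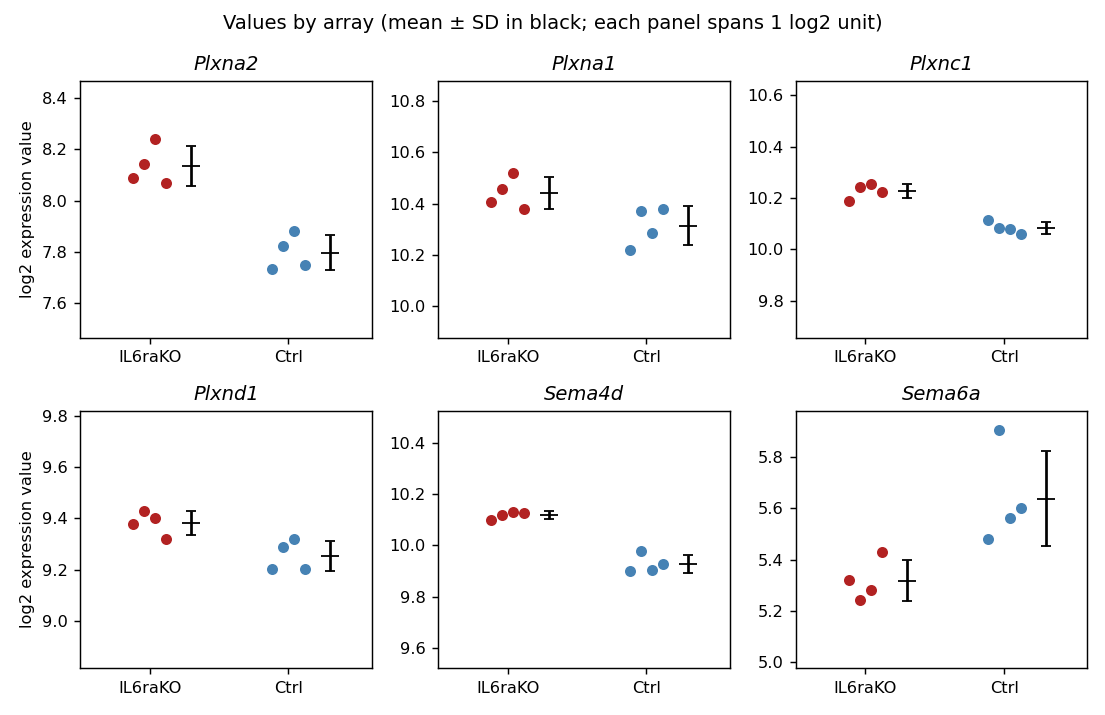
Log2 expression values of 6 members by array, IL6raKO (red) left of Ctrl (blue), with the mean and SD in black; every panel spans the same 1 log2 unit. The 4 IL6raKO arrays lie above the Ctrl arrays for Plxna2, Plxnc1 and Sema4d, by 0.0016 for Plxna1, and below them for Sema6a, while 1 array of each group touches the other for Plxnd1.

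No member passed the test across all genes. At an adjusted p under 0.05 in limma, a linear model with variances shared across genes, 0 of the 31 members were called, where 0.0301% of all genes (6 of 19938) were. That count holds Plxna2, whose choice used this comparison, and nothing is read from its part. Of the other 30 members 0 were called. Without Plxna2, for which the family was chosen, 3 of the other 30 members had an unadjusted p under 0.05 in limma, against 7.28% of all genes. Of these, Plxnc1 and Sema4d were on the higher side, where 2.74% of all genes had such a p, and Sema6a on the lower side, where 4.54% of all genes did. Of the same 30 members, all IL6raKO arrays lay above all Ctrl arrays for 3 (Plxna1, Plxnc1 and Sema4d), against 2.07% of all genes, and below them for 2 (Sema6a and Nrp2), against 2.37% of all genes. The family was chosen through this comparison, so nothing is read from these shares. Differences of the 31 members ran from -0.32 for Sema6a to 0.34 for Plxna2, and only these 2 differed by more than 0.2 in size. The SD within a group ranged from 0.01 to 0.28 over the members, with a median of 0.09.

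Receptors and ligands had median differences close to 0. The median difference was -0.03 for the 11 receptors and -0.02 for the 20 ligands, beside -0.01 for all genes. Of the 30 members other than Plxna2, 12 had a difference above 0, against 45.8% of all genes. Among the receptors 5 were on the higher and 6 on the lower side in IL6raKO, and among the ligands 8 were on the higher and 12 on the lower side. The median size of the difference, whatever its sign, was 0.12 for the receptors and 0.07 for the ligands, beside 0.06 for all genes. These receptor figures, and those that follow, include Plxna2. Without it 4 receptors were on the higher and 6 on the lower side, with a median of -0.03 and a median size of 0.12. Among members at or above the median level of all genes, the median was 0.09 for 8 receptors and 0.00 for 6 ligands. Over all members, with the mast cell and basophil covariate, it was 0.05 for the 11 receptors and -0.01 for the 20 ligands. The sign of the receptor median turned with these settings. It did so also without Ctrl replicate 3 (0.0019), Ctrl replicate 4 (0.0027) or IL6raKO replicate 1 (0.0309). No test was made between receptors and ligands, since members of a list are not replicates.

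**Figure D2:**
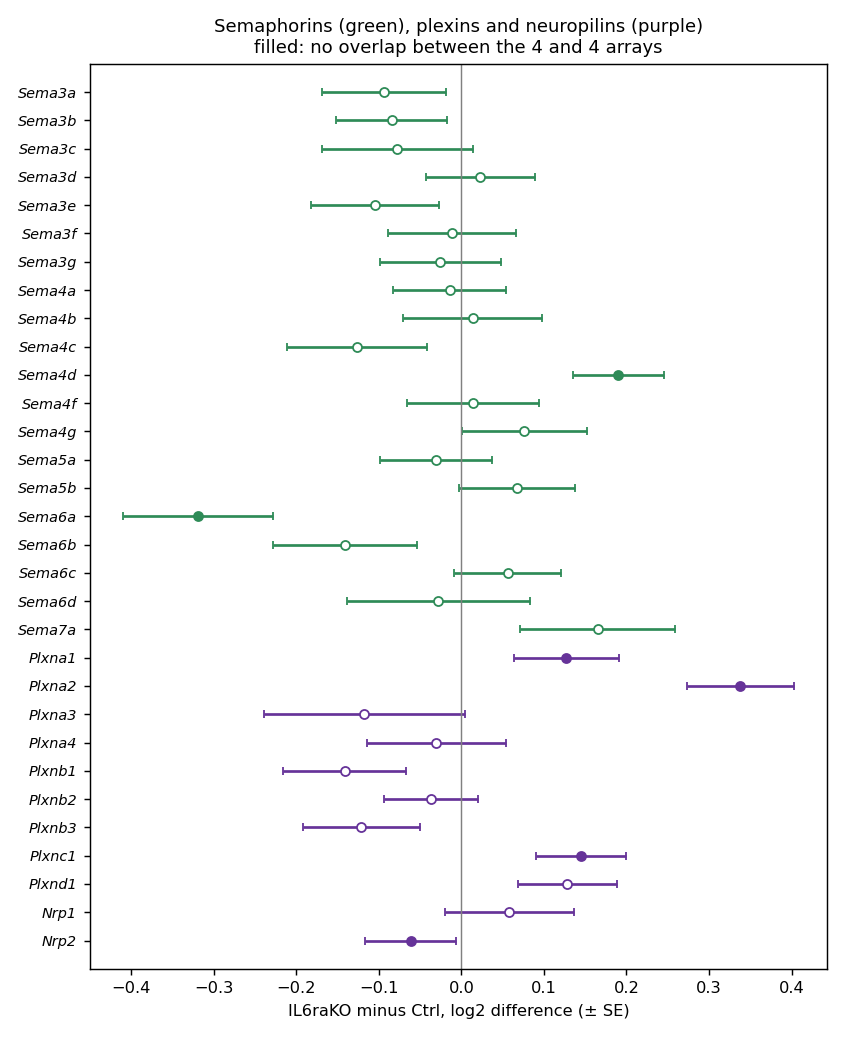
Difference of log2 values, IL6raKO minus Ctrl, with its standard error for all 31 members, semaphorins in green and receptors in purple; a filled point means that the 4 IL6raKO and 4 Ctrl arrays did not overlap. Plxna2 (0.34) and Sema6a (-0.32) lie farthest from 0, and all 3 plexin-B genes and 6 of the 7 class 3 semaphorins lie left of it.

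The other plexin-A receptors lay on both sides of 0, and none was called. Plxna1 encodes plexin-A1, which forms a complex with Trem2 and Tyrobp (DAP12) in dendritic cells and osteoclasts and receives Sema6D there. It had log2 values of 10.41, 10.46, 10.52 and 10.38 in IL6raKO arrays, against 10.22, 10.37, 10.29 and 10.38 in Ctrl arrays. The groups were separated by only 0.0016, between IL6raKO replicate 4 and Ctrl replicate 4. The difference of 0.13 (SE 0.06) was not called in limma (adjusted p = 0.707), and the groups overlapped after quantile normalization was applied again and after centring on the 75th percentile. Plxna3, a receptor of Sema3F with neuropilin-2, had 5.59, 6.25, 5.94 and 5.82 in IL6raKO arrays, against 6.11, 6.07, 5.84 and 6.06 in Ctrl arrays. Its IL6raKO arrays spread the most of any member and group (SD 0.28), and they reached both above and below all Ctrl arrays. Plxna4, which binds Sema3A with neuropilin-1 and also Sema6A and Sema6B, had 6.60, 6.82, 6.85 and 6.88 in IL6raKO arrays, against 6.74, 6.68, 6.91 and 6.94 in Ctrl arrays, with full overlap. The differences were -0.12 for Plxna3 (95% confidence interval -0.38 to 0.15, with -0.01 without IL6raKO replicate 1 and -0.23 without IL6raKO replicate 2) and -0.03 for Plxna4 (95% confidence interval -0.21 to 0.15).

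The plexin-B receptors lay on the lower side in IL6raKO, all 3 of them uncalled. Plxnb1, the high-affinity receptor of Sema4D, had log2 values of 6.34, 6.29, 6.42 and 6.27 in IL6raKO arrays, against 6.43, 6.49, 6.33 and 6.64 in Ctrl arrays. Of the 4 Ctrl arrays, 3 lay above all IL6raKO arrays, and Ctrl replicate 3 lay among them. The difference was -0.14 (SE 0.07, limma adjusted p = 0.715), and -0.09 without Ctrl replicate 4. Plxnb2, which binds Sema4C and Sema4D, had 9.92, 10.01, 9.95 and 9.97 in IL6raKO arrays, against 9.98, 9.94, 10.06 and 10.01 in Ctrl arrays. The groups overlapped, and the difference was -0.04 with a 95% confidence interval of -0.16 to 0.09. Plxnb3, a receptor of Sema5A, had 5.71, 5.76, 5.55 and 5.51 in IL6raKO arrays, against 5.68, 5.76, 5.79 and 5.78 in Ctrl arrays. Its groups overlapped, and the difference was -0.12 (SE 0.07, limma adjusted p = 0.730).

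Plxnc1 and Plxnd1 lay on the higher side in IL6raKO. Plxnc1 encodes plexin-C1, the receptor of Sema7A, and had log2 values of 10.19, 10.24, 10.25 and 10.22 in IL6raKO arrays, against 10.12, 10.08, 10.08 and 10.06 in Ctrl arrays. The groups did not overlap, with a gap of 0.075, and the spread within each was small (SD 0.03 in IL6raKO and 0.02 in Ctrl). The difference was 0.14 (SE 0.05), and limma did not call it (adjusted p = 0.654). Plxnd1, the receptor that binds Sema3E without a neuropilin and also Sema4A, had 9.38, 9.43, 9.40 and 9.32 in IL6raKO arrays, against 9.20, 9.29, 9.32 and 9.20 in Ctrl arrays. Only IL6raKO replicate 4 and Ctrl replicate 3 met, at 9.32, and the difference was 0.13 (SE 0.06, limma adjusted p = 0.690). Without either of these arrays the groups of Plxnd1 did not overlap.

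The neuropilins, which have short cytoplasmic tails and bind both class 3 semaphorins and forms of VEGF, showed small differences. Nrp1 had log2 values of 10.85, 10.92, 10.92 and 11.03 in IL6raKO arrays, against 10.94, 11.03, 10.82 and 10.71 in Ctrl arrays. The Ctrl arrays reached both above and below most IL6raKO arrays, and the difference was 0.06 (95% confidence interval -0.11 to 0.23). Nrp2 had 9.82, 9.82, 9.76 and 9.78 in IL6raKO arrays, against 9.84, 9.89, 9.83 and 9.86 in Ctrl arrays. All IL6raKO arrays of Nrp2 lay below all Ctrl arrays, by a gap of 0.010. The difference of -0.06 (SE 0.06) was not called in limma (adjusted p = 0.832).

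Among the ligands, Sema4d lay highest in IL6raKO relative to Ctrl. Sema4D (CD100) is a membrane semaphorin of T cells, B cells and myeloid cells that can be shed and binds plexin-B1, plexin-B2 and CD72. The probe set used had log2 values of 10.10, 10.12, 10.13 and 10.13 in IL6raKO arrays, against 9.90, 9.98, 9.90 and 9.93 in Ctrl arrays. The groups were apart by 0.12, and the IL6raKO arrays lay closer together (SD 0.01) than those of any other member. The difference of 0.19 (SE 0.05), or 114.1% of the control level, was not called in limma (adjusted p = 0.566). A further, dimmer probe set of Sema4d had 7.21, 7.19, 7.25 and 7.15 in IL6raKO arrays, against 7.18, 6.98, 7.27 and 7.21 in Ctrl arrays. Its groups overlapped and its difference was 0.04 (SE 0.07), smaller than that of the brighter probe set; the difference between them was not tested. The mean of both gave 0.12.

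Sema6a lay lowest. Sema6A is a membrane semaphorin whose receptors are plexin-A2 and plexin-A4. Its log2 values were 5.32, 5.24, 5.28 and 5.43 in IL6raKO arrays, against 5.48, 5.91, 5.56 and 5.60 in Ctrl arrays. The groups were apart by 0.052, and Ctrl replicate 2 lay far above the other Ctrl arrays. The difference was -0.32 (SE 0.09), or 80.1% of the control level, and limma did not call it (adjusted p = 0.566). Without Ctrl replicate 2 the difference was -0.23. The mean of Sema6a over all arrays lay below 6.43, the median over all genes, as did that of 17 members in all.

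Sema6b and Sema6d are membrane semaphorins of the same class. Sema6b had log2 values of 6.75, 6.79, 6.68 and 7.00 in IL6raKO arrays, against 7.04, 6.88, 6.79 and 7.07 in Ctrl arrays, a difference of -0.14 (SE 0.09, limma adjusted p = 0.748). IL6raKO replicate 4 lay among the Ctrl arrays. Its 2 probe sets held the same values on every array, so the second adds no measurement. Sema6d, a ligand of plexin-A1 known to act in macrophages, had 6.08, 5.87, 6.06 and 6.23 in IL6raKO arrays, against 5.99, 5.82, 6.29 and 6.26 in Ctrl arrays. Both groups covered nearly the same range, and the difference was -0.03 (95% confidence interval -0.27 to 0.22). Sema6c differed by 0.06 (SE 0.06).

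Sema7a, whose protein is anchored to the membrane by a lipid and binds plexin-C1 and integrins, had log2 values of 5.80, 5.62, 5.93 and 5.88 in IL6raKO arrays, against 5.69, 5.61, 5.43 and 5.84 in Ctrl arrays. The groups overlapped, since Ctrl replicate 4 lay among the IL6raKO arrays and IL6raKO replicate 2 among the Ctrl arrays. The difference was 0.16 (SE 0.09, limma adjusted p = 0.725). It was 0.23 without Ctrl replicate 4 and without IL6raKO replicate 2, and 0.10 without Ctrl replicate 3.

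Sema4a, a membrane semaphorin of dendritic cells and T cells, had log2 values of 7.65, 7.67, 7.64 and 7.50 in IL6raKO arrays, against 7.74, 7.52, 7.66 and 7.59 in Ctrl arrays. The IL6raKO arrays lay within the range of the Ctrl arrays except for replicate 4, and the difference was -0.01 (95% confidence interval -0.16 to 0.14). Sema4c, the ligand of plexin-B2, had 6.12, 5.81, 6.01 and 5.82 in IL6raKO arrays, against 6.10, 6.02, 5.95 and 6.20 in Ctrl arrays, with overlap. Its difference was -0.13 (SE 0.09, limma adjusted p = 0.766), and between -0.19 and -0.08 under the alternatives. Sema4b, Sema4f and Sema4g differed by 0.01, 0.01 and 0.08, each with overlapping groups. The class 5 semaphorins Sema5a and Sema5b differed by -0.03 and 0.07.

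Of the 7 class 3 semaphorins, 6 lay on the lower side in IL6raKO, none without overlap. Of these 6, Sema3f and Sema3g were close to 0 and lay on the higher side without IL6raKO replicate 3 (0.02 and 0.03), and Sema3f did so also without Ctrl replicate 3 or 4 (0.02 each). Sema3a, whose protein repels axons and leukocytes through neuropilin-1, had log2 values of 4.83, 4.78, 4.81 and 5.09 in IL6raKO arrays, against 4.97, 4.97, 5.02 and 4.93 in Ctrl arrays. IL6raKO replicate 4 lay above all Ctrl arrays and the other IL6raKO arrays lay below them all. The difference was -0.09 (SE 0.07, limma adjusted p = 0.801) with all arrays, -0.16 without IL6raKO replicate 4 and -0.06 without IL6raKO replicate 2. Sema3e, the ligand of plexin-D1, had 5.16, 4.82, 4.95 and 5.09 in IL6raKO arrays, against 5.09, 5.08, 5.10 and 5.17 in Ctrl arrays, a difference of -0.10 (SE 0.08). It was -0.04 without IL6raKO replicate 2 and -0.16 without IL6raKO replicate 1. The other 5 differed by -0.08 (Sema3b and Sema3c), -0.03 (Sema3g), -0.01 (Sema3f) and 0.02 (Sema3d). Of the 7, only Sema3f had a mean over all arrays at or above the median of all genes.

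**Figure D3:**
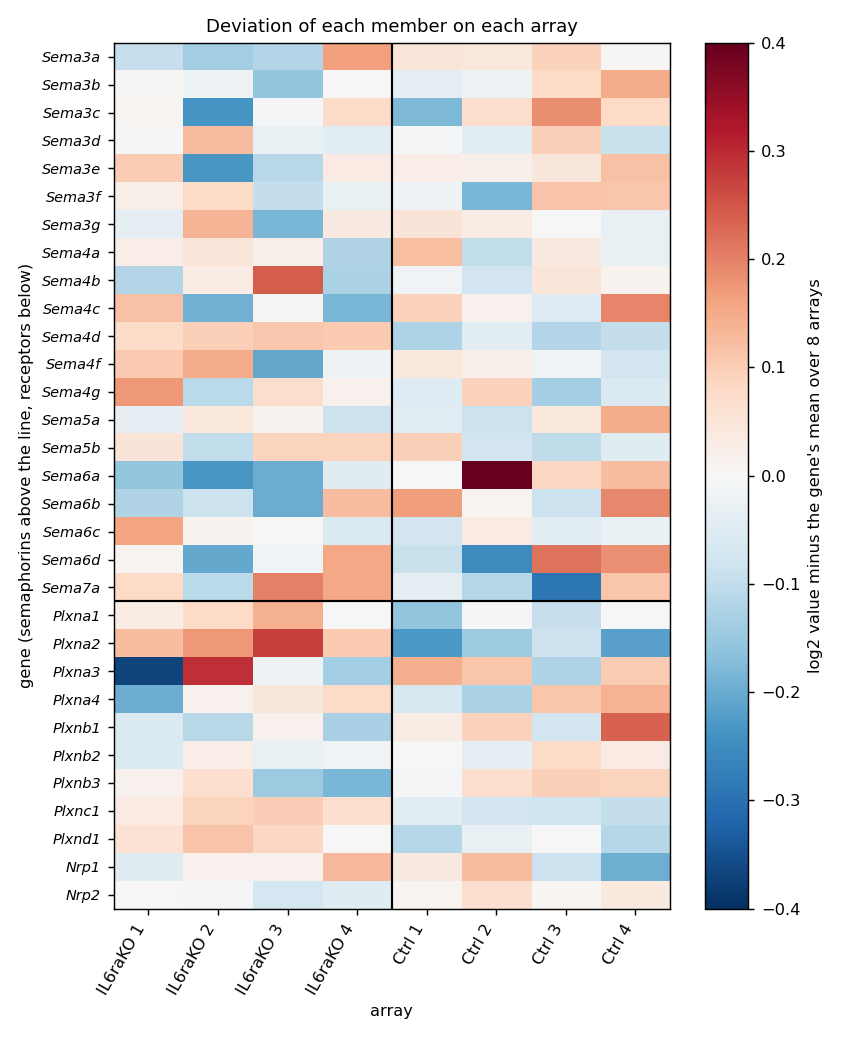
Deviation of each member's log2 value from its own mean over the 8 arrays (colour, from -0.4 to 0.4), with the IL6raKO arrays left of the line and the Ctrl arrays right of it, semaphorins above and receptors below. Plxna2, Plxnc1 and Sema4d keep 1 colour on each side, while the widest single deviations are those of Sema6a in Ctrl replicate 2 and of Plxna3 in IL6raKO replicate 1.

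The direction of a ligand was set beside that of its receptor. Of 16 pairs of a ligand and a receptor known to bind, 8 had differences of the same sign, 6 had the ligand lower and the receptor higher in IL6raKO, and 2 had the reverse, several pairs sharing a member. Sema6a (-0.32) and its receptor Plxna2 (0.34) lay farthest apart. The family was chosen by the higher Plxna2, so the receptor side of its pairs was fixed in advance. Its pairs with Sema6a and Sema6b are among the 6, and nothing is read from them. Sema4d (0.19) stood against Plxnb1 (-0.14) and Plxnb2 (-0.04), while Sema7a (0.16) and Plxnc1 (0.14) were both on the higher side. These counts describe the pairs and were not tested.

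**Figure D4:**
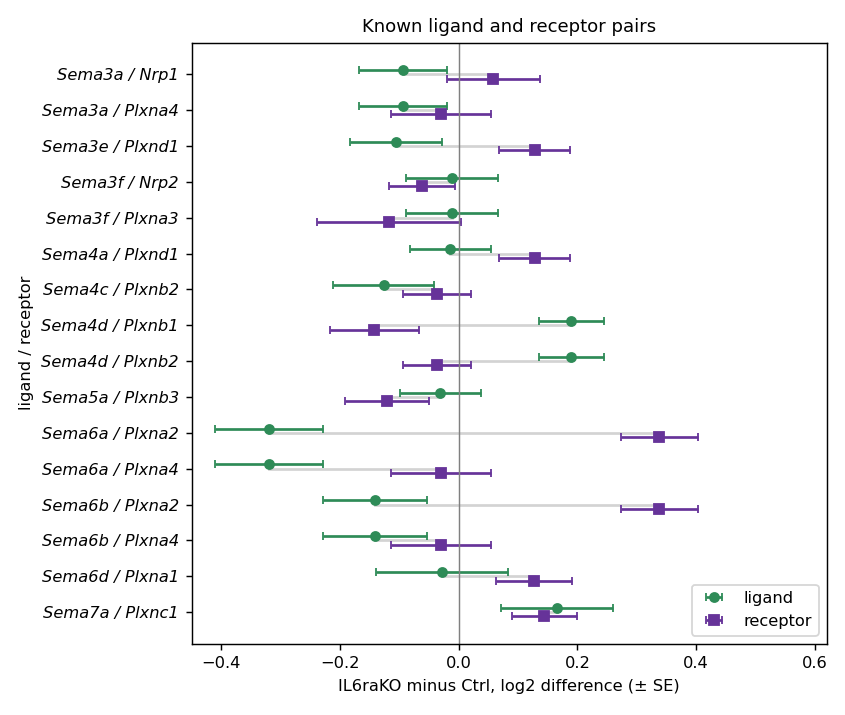
Difference of log2 values, IL6raKO minus Ctrl, with its standard error for the ligand (green circle) and the receptor (purple square) of 16 known pairs. The pair of Sema6a and Plxna2 spans -0.32 to 0.34, and Sema7a and Plxnc1 both lie right of 0. Plxna2 chose the family, so its side was fixed in advance.

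Other genes of semaphorin signalling were read from lists of co-receptors, other neuropilin ligands, cytoplasmic effectors and processing proteases. Of their 67 measured genes, 0 were called at an adjusted p under 0.05 in limma, against 0.0301% of all genes, and 8 had an unadjusted p under 0.05, against 7.28% of all genes. Among 20 co-receptors and partners, 10 were on the higher and 10 on the lower side. Nrcam, a neural adhesion molecule that joins semaphorin receptor complexes, was at -0.28 (SE 0.07, limma adjusted p = 0.552). All its IL6raKO arrays lay below all Ctrl arrays, as for 2.37% of all genes. Met, the HGF receptor that associates with plexin-B1, was at 0.40 (SE 0.12, limma adjusted p = 0.569). All its IL6raKO arrays lay above all Ctrl arrays, as for 2.07% of all genes. Trem2 and Tyrobp, the partners of plexin-A1, differed by 0.05 and -0.03, and Cd72, the lymphocyte receptor of Sema4D, by 0.00.

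Of 6 other neuropilin ligands, 4 were on the higher and 2 on the lower side in IL6raKO. Vegfa, whose protein binds neuropilin-1 and VEGF receptors, had log2 values of 9.23, 9.28, 9.42 and 9.18 in IL6raKO arrays, against 8.93, 8.89, 8.95 and 8.91 in Ctrl arrays, without overlap. Its difference of 0.36 (SE 0.07) was not called in limma (adjusted p = 0.237), but was called with a trended and robust variance (limma adjusted p = 0.0234). Hgf differed by 0.11 (SE 0.06). Of 34 measured cytoplasmic effectors, 20 were on the higher and 14 on the lower side, and those of lowest p were Iqsec1, an exchange factor for Arf6 (0.18, SE 0.07, limma adjusted p = 0.655), and Mical2, an actin-oxidising enzyme (0.18, SE 0.07, limma adjusted p = 0.669). Of 7 proteases that process or shed semaphorins, 3 were on the higher and 4 on the lower side, with Adam17, a sheddase, at 0.09 (SE 0.06) and Furin, a convertase that cleaves class 3 semaphorins, at -0.07 (SE 0.09).

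Markers of other cells were read beside these results, because semaphorins and plexins are also expressed in lymphocytes, granulocytes and stromal cells. In such bulk cultures fewer cells of a type and less RNA per cell cannot be told apart. Over all genes, 10803 of 19938 were on the lower side in IL6raKO. The median difference was -0.01 for all genes and 0.01 for genes at or above the median level. The markers of most lists were dim, and whether other dim genes share their lower values was not tested. The mean log2 value of 5 B cell markers was 5.52 to 5.58 in IL6raKO arrays and 5.67 to 5.73 in Ctrl arrays, and all 5 were on the lower side in IL6raKO. The mean of 10 mast cell and basophil markers was 5.82 to 6.33 in IL6raKO arrays and 6.03 to 6.55 in Ctrl arrays, with 9 of 10 lower. The brightest of these 10 were Cpa3 (7.39 to 8.55 in IL6raKO and 7.93 to 9.17 in Ctrl), Prss34 and Mcpt8 (6.19 to 7.67 in IL6raKO and 6.87 to 8.33 in Ctrl). Their differences were -0.38 (SE 0.27), -0.18 (SE 0.15) and -0.45 (SE 0.34), each with overlapping groups. For 9 neutrophil markers the mean was 5.79 to 6.19 in IL6raKO and 5.97 to 6.30 in Ctrl, with 6 of 9 lower. For 6 T and NK cell markers the mean was 5.45 to 5.60 in IL6raKO and 5.51 to 5.66 in Ctrl, with 4 of 6 lower. Stromal markers had 5.70 to 5.81 in IL6raKO and 5.78 to 5.88 in Ctrl, with 6 of 7 lower, and dendritic cell markers 6.09 to 6.19 in IL6raKO and 6.09 to 6.30 in Ctrl, with 5 of 7 lower. Endothelial and osteoclast markers ran from 5.81 to 5.82 and from 8.14 to 8.36 in IL6raKO, and from 5.72 to 5.85 and from 8.14 to 8.31 in Ctrl, each with 3 of 7 lower. Among these list means only that of the B cell markers did not overlap between the groups, with 1 of its 5 genes (Ighm) apart by itself, as were Zbtb46 of the dendritic cell list and Mpo of the neutrophil list. The B cell mean lay in the same direction as Sema6a and opposite to Sema4d, and their part in those values was not tested. With the mast cell and basophil covariate Sema4d differed by 0.20 and Sema6a by -0.30.

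**Figure D5:**
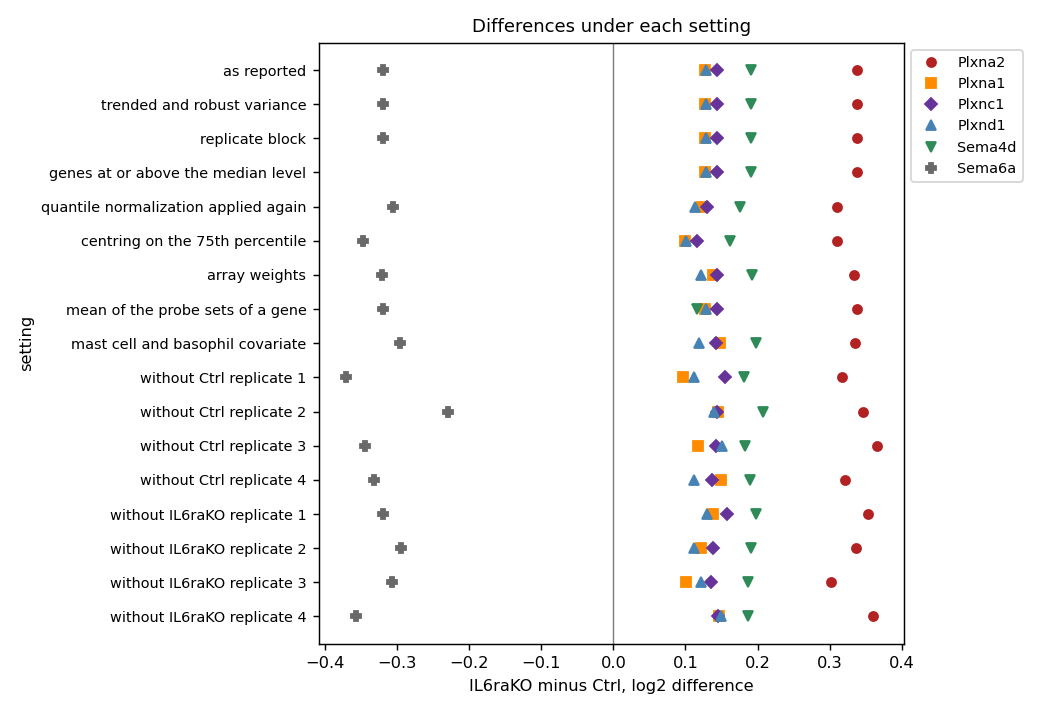
Difference of log2 values, IL6raKO minus Ctrl, of 6 members as reported and under each of 16 alternatives, 1 per line; Sema6a has no value among genes at or above the median level. Plxna2 stays between 0.30 and 0.37, Sema4d between 0.12 and 0.21, and Sema6a between -0.37 and -0.23.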

How the data were processed

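Biotin-labelled cDNA from 8 cultures was hybridised to Affymetrix arrays that probe whole transcripts, as the labels' protocols state. The authors deposited log2 values of 35556 probe sets on each array, with RMA (background correction, quantile normalization and probe summary) and R 2.13.1 named in the submitters' processing notes. The log2 scale was read from the range, 1.96 to 14.2, and from RMA; the order of steps and any filter are not stated there, and no build is named. Array medians lay between 6.31 and 6.35, and arrays carry no read depth, so their number limits the precision.

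Names came from GEO's platform annotation, in which 21789 probe sets (61.3%) had 1 symbol, 1621 had several and 12146 had none; RefSeq (GRCm38.p6) held 21698 of the identifiers and changed 0 symbols. The family had 33 probe sets, and for the 2 members with more than 1 the probe set of highest mean was taken. Another probe set, annotated to several symbols with a match to the family rule among them, was left out.

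IL6raKO minus Ctrl was fitted with limma 3.58.1 in R 4.3.3 (lmFit and eBayes, default settings) on all 8 arrays and 19938 genes, with no covariate or filter, two-sided, and adjusted by Benjamini-Hochberg over all genes. The procedure was tested on simulated data with independent noise and set changes larger than the difference of any member. That check does not tell how often differences of the size seen here would be called. The members, lists and alternatives were chosen with earlier results of these data known. Per-array values are given for Plxna2, the other 5 receptors and the 5 ligands of lowest unadjusted p, members with known immune roles, and Plxna3 (chosen after its values were seen), and 2 genes of lowest p are named per pathway list; Trem2, Tyrobp and Cd72 were added as known partners after their values were seen. Promoter windows are RefSeq's. Protein sequences were not analysed here. Alternatives were a trended and robust variance, the replicate number as a block, a filter at the median level, quantile normalization again, array weights, centring on the 75th percentile, averaged probe sets, a marker covariate and each array left out.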

Additional observations from a re-analysis of the deposited data

Results flagged for a closer look

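In 4 of the 90 gene or list means by genotype, all of 4 arrays, 1 array stood so far from its nearest neighbour that the gap passed the 95% critical value of Dixon's test, where chance gives about 1 in 20, or 4.5. Sema3a had 5.09 in IL6raKO replicate 4, with 4.78 to 4.83 in the other IL6raKO arrays. Sema3b had 5.82 in IL6raKO replicate 3, with 5.95 to 5.97 in the others of its group. Sema4a had 7.50 in IL6raKO replicate 4, with 7.64 to 7.67 in the remaining IL6raKO arrays. Plxna3 had 5.84 in Ctrl replicate 3, with 6.06 to 6.11 in the remaining Ctrl arrays.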

How the results depend on the processing

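No member was called under any of the 16 alternatives in limma, and without Plxna2 the lowest adjusted p of a member ran from 0.215 (trended and robust variance) to 0.863 (marker covariate). Over all genes the count of calls ran from 0 to 22, against 6 as reported. Of the 31 members, 22 kept the sign of their difference in every setting in which they were tested and 9 did not (Plxna4, Sema3d, Sema3f, Sema3g, Sema4a, Sema4b, Sema4f, Sema5a and Sema6d). The replicate numbers did not pair the arrays (correlations of same-numbered residuals over genes between -0.01 and 0.04), and the replicate block left the difference of Plxna2 at 0.34 with 0 members called and 3 at an unadjusted p under 0.05. With array left-outs, Plxna2 lay between 0.30 and 0.37, the median of the ligands between -0.0572 and 0.0036, the median of the receptors between -0.0504 and 0.0309, and the count of members at an unadjusted p under 0.05 between 3 and 7 (7 without IL6raKO replicate 4), Plxna2 included. Plxna2, which chose the family, was also among the members counted with the replicate block. The share of all genes at such a p was not counted under these settings, so nothing is read from these counts. The median of the receptors was 0.0925 among genes at or above the median level, where 8 receptors were left, and 0.0451 with the marker covariate, against -0.03 as reported. Vegfa was called with a trended and robust variance (adjusted p = 0.0234), which made 1 pathway gene called. Sema4d differed by 0.16 and Plxnc1 by 0.12 after centring on the 75th percentile, which moved the median of all genes to -0.04. The number of arrays limits the precision, and the table holds no background level against which dim probe sets could be read.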
